A study of Rattus norvegicus with 11 samples.

Results

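The levels of 7 rat gene IDs linked to reactive astrocytes were followed in the ipsilateral spinal cord, out of 32623 IDs in the deposited count table. The IDs were chosen by name, as genes known to mark astrocyte reaction, but with earlier results of these data known. They stand for Lcn2 (ENSRNOG00000013973), Serpina3n (ENSRNOG00000010410), Timp1 (ENSRNOG00000010208), Gfap (ENSRNOG00000002919), Vim (ENSRNOG00000018087), Cd44 (ENSRNOG00000006094) and Hspb1 (ENSRNOG00000023546). The names are those the list gives. The count table holds IDs only and the gene table used here carries 0 Ensembl IDs, so the pairing of names with IDs could not be checked, and other astrocyte, microglial, neutrophil and neuronal markers could not be looked up.

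Gene expression was measured by sequencing poly(A)-selected RNA of adult male rats weighing 350 to 400 g. Rats of the PTX+SCS group (3 libraries, SCS 1, SCS 2 and SCS 5) had intraperitoneal injections of 1.5 mg/kg of paclitaxel, a cancer drug that stabilises microtubules and can cause neuropathic pain, on days 1, 3, 5 and 7. An implanted electrode delivered SCS (electrical stimulation of the cord, used against chronic pain) at 50 Hz with pulses of 0.2 ms. Rats of the PTX+Sham SCS group (5 libraries, sham 1 to 5) had the same drug and an electrode without stimulation. Naive rats (3 libraries, naive 1 to 3) had neither drug nor electrode, so paclitaxel and electrode placement cannot be told apart in any comparison with them. The labels give neither the strain nor the cord segment and do not say that each library came from its own rat, and p-values therefore rest on the spread between libraries. The sample titles mark the stimulated group with the letter S and the sham group with X, and the group label was followed.

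Astrocytes are the glial cells that support neurons, take up transmitter and line vessels and the cord surface. After injury or inflammation they enlarge and change their gene expression, a state called reactive, in which the filament proteins GFAP and vimentin accumulate and secreted proteins such as lipocalin-2 are induced. Several of these genes are also expressed by other cells, Lcn2 by neutrophils and endothelium, and Vim, Timp1 and Cd44 by fibroblasts, endothelium and immune cells. In bulk tissue more cells of a type and more RNA per cell cannot be told apart.

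Total counts were 18633243 to 29395233 in the SCS libraries, 11243288 to 22144967 in the sham libraries and 17401720 to 56775931 in the naive libraries. Levels are given as CPM, the count of a gene scaled to the same total in each library, with TMM factors. Of the 7 IDs, 6 were counted in every library and tested among 15758 genes. ENSRNOG00000010410, listed as Serpina3n, a secreted serine protease inhibitor, had 0 counts in all 11 libraries. A count of 0 allows up to 0.267 CPM in the shallowest library, sham 4, and 0.0528 CPM in the deepest, naive 3. Whether reads of this gene were assigned to a near-identical relative or to another ID was not tested. Apart from the motif search, which went by symbol, it takes no part in what follows.

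**Figure D1:**
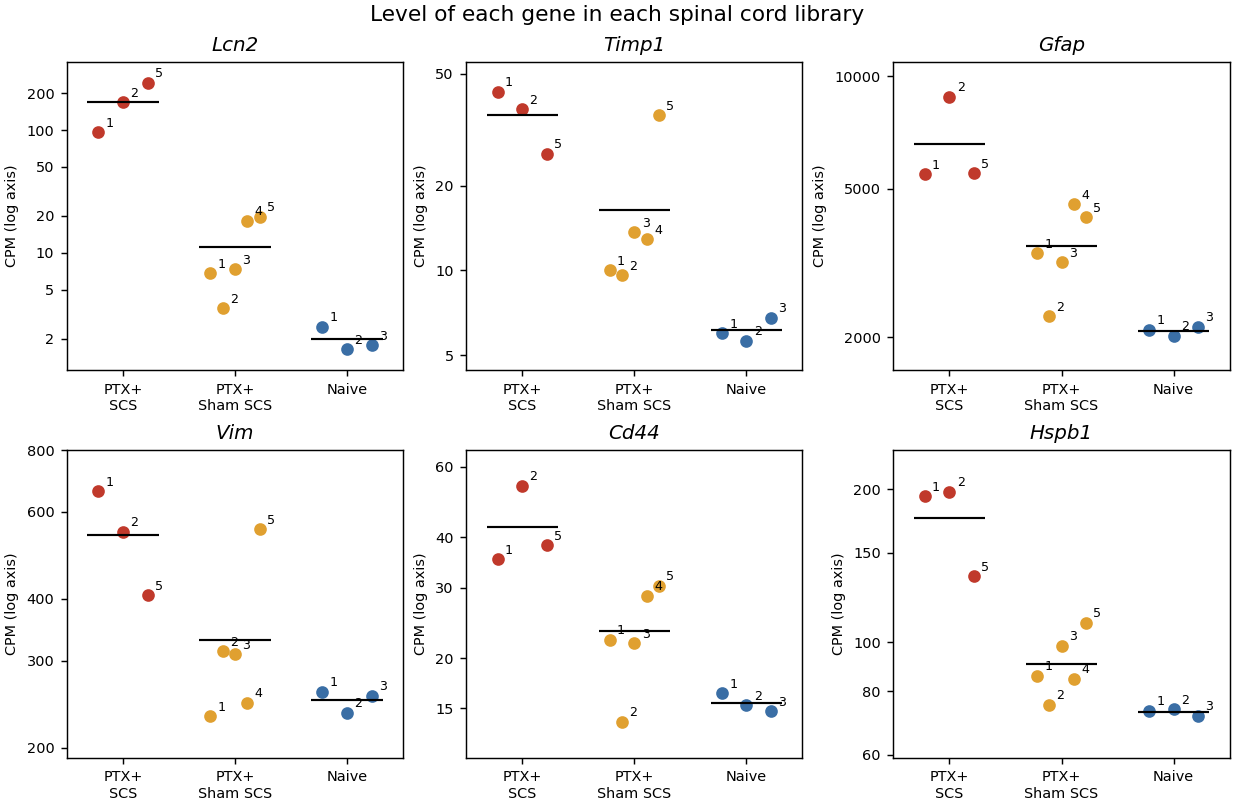
CPM of the 6 counted genes in each library, on log axes, with the replicate number beside each point and a line at the group mean. Lcn2 spans 1.63 to 242 CPM with no overlap between the 3 groups, and sham 5 stands among the PTX+SCS libraries for Timp1 and Vim.

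Lcn2 showed the widest range of the 6 genes. It encodes lipocalin-2, a secreted protein that binds iron-carrying siderophores and is released in acute inflammation. In the PTX+SCS libraries it stood at 95.7 CPM in SCS 1, 169 CPM in SCS 2 and 242 CPM in SCS 5. In the PTX+Sham SCS libraries it stood at 6.83, 3.54, 7.35, 18.3 and 19.7 CPM in sham 1 to 5. In the Naive libraries it stood at 2.496, 1.63 and 1.77 CPM in naive 1 to 3. No library of one group reached the range of another, and the highest sham library held 0.206 times the level of the lowest SCS library. The naive values rest on 43, 40 and 101 counts, and for naive 2 the 95% Wilson interval was 1.21 to 2.24 CPM of the unscaled total, which covers counting error only.

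The mean of Lcn2 was 169 ± 73.3 CPM in PTX+SCS (SD, n = 3) and 11.1 ± 7.34 CPM in PTX+Sham SCS libraries (SD, n = 5). The log2 fold change of stimulated over sham was 3.94 ± 0.50 (SE), or 15.3-fold with a 95% interval of 6.94 to 33.8, and it passed edgeR's quasi-likelihood test (adjusted p = 0.0127). It ranked as number 3 of 15758 genes by size. Of the libraries left out singly, SCS 2 was the one without which the call was lost, where the log2 fold change was 3.94 with an adjusted p of 0.0598, over a range of 6.41e-09 to 0.0598 in 19 alternatives. Sham libraries were higher than naive ones in 5 of 5, at a log2 fold change of 2.54 ± 0.71 (SE), but the adjusted p of 0.421 did not pass. DESeq2 alone called it (adjusted p = 0.00414, in a range of 0.00414 to 0.989). Over naive, the stimulated libraries were 89.2-fold higher (95% interval 28.5 to 279, log2 fold change 6.48 ± 0.72, SE, edgeR adjusted p = 0.00129).

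The region around the annotated start of Lcn2 is shown with that of Hspb1. Of the 6 tested members, Lcn2 had the largest fold change and Hspb1 the smallest p in stimulated against sham. Both run 5′ to 3′ on the gene's own strand, from 250 bases before to 50 bases after the start, and are RefSeq sequence of build GRCr8, whereas the counts were made on rn6. Lcn2 lies at chr3:36081731-36082030 and Hspb1 at chr12:26432252-26432551, both on the minus strand. Capitals mark matches to the C/EBP motif TTGCNNAA in Lcn2 and to the heat shock motif GAANNTTC in Hspb1.
Lcn2: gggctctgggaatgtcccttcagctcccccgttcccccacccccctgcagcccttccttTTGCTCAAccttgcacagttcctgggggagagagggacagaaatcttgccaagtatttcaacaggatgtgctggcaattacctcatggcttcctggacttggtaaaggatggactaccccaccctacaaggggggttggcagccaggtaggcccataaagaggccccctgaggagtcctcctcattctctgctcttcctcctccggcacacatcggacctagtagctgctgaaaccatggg
Hspb1: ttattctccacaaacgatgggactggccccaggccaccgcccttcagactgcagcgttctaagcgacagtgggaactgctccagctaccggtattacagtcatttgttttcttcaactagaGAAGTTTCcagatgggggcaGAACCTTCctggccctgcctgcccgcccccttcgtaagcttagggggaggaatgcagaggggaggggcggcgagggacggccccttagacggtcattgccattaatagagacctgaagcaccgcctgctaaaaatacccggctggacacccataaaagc

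Windows of all 7 genes were matched by symbol and searched on both strands for 5 motifs, beside 33469 windows of the same length. The C/EBP motif was found in 1 of the 7 (Lcn2) and in 10.6% of all windows. The heat shock motif was found in 2 (Hspb1, at 129 and 109 bases before the start, and Serpina3n) and in 8.59% of all windows. The STAT motif TTCNNNGAA was found in 1 (Serpina3n) against 8.87%, the TATA motif TATAAA in 1 (Vim) against 14.2%, and the AP-1 motif TGANTCA in 0 against 7.33%. No motif of the 5 was shared by more than 2 windows. A match describes letters only, and the absence of one says nothing of a factor's binding.

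Timp1, which encodes a secreted inhibitor of matrix metalloproteinases, was at 43.2, 37.5 and 26.0 CPM in SCS 1, SCS 2 and SCS 5. It was at 10.01, 9.62, 13.7, 12.9 and 35.6 CPM in sham 1 to 5, and at 5.98, 5.63 and 6.79 CPM in naive 1 to 3. The sham libraries lay above the naive ones without overlap, but sham 5 stood apart from the other sham libraries and above SCS 5. Sham over naive had a log2 fold change of 1.42 ± 0.48 (SE), which did not pass (edgeR adjusted p = 0.505, in a range of 0.122 to 0.989 over 19 alternatives), and without sham 5 it was 0.89 (adjusted p = 0.217). The log2 fold change of stimulated over sham was 1.10 ± 0.42 (SE) and did not pass (edgeR adjusted p = 0.186). Without sham 5 it was 1.63 and passed (adjusted p = 0.000677), and it also passed with limma-voom without and with sample quality weights (0.0354 and 0.0174). The range over 19 alternatives was 0.000677 to 0.457, with the highest value without SCS 2, at a log2 fold change of 1.07. Over naive, the log2 fold change of stimulated libraries was 2.52 ± 0.51 (SE), which passed at an edgeR adjusted p of 0.0134. That call was lost without naive 1, naive 2 or naive 3, at adjusted p of 0.0508, 0.0607 and 0.0542.

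Gfap encodes glial fibrillary acidic protein, the intermediate filament by which astrocytes are most often recognised. It stood at 5463, 8810 and 5488 CPM in SCS 1, SCS 2 and SCS 5. It stood at 3357, 2278, 3182, 4540 and 4193 CPM in sham 1 to 5, and at 2093, 2021 and 2134 CPM in naive 1 to 3. In the naive libraries it took 0.203% to 0.215% of all counts, so the labelled tissue held this astrocyte marker at a high level. The 3 groups did not overlap, and sham 2 lay close to the naive libraries while sham 4 and sham 5 came nearest the stimulated ones.

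The mean of Gfap was 6587 ± 1925 CPM in PTX+SCS (SD, n = 3), 3510.0 ± 891 CPM in PTX+Sham SCS (SD, n = 5) and 2083 ± 56.9 CPM in Naive libraries (SD, n = 3). The log2 fold change of stimulated over sham was 0.91 ± 0.22 (SE), with an edgeR adjusted p of 0.0592 that just missed the threshold. It passed without SCS 5 (0.0496) and without sham 4 (0.0432), and with DESeq2 (0.00598), limma-voom (0.0250) and quality weights (0.0416). The highest value over 19 alternatives was 0.289, without SCS 2, where the log2 fold change was 0.65. Stimulated over naive was 3.16-fold (95% interval 2.11 to 4.75, edgeR adjusted p = 0.00378). Sham over naive had a log2 fold change of 0.75 ± 0.23 (SE) that did not pass (edgeR adjusted p = 0.456).

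Vim encodes vimentin, a filament partner of GFAP that fibroblasts, endothelium and microglia also make. It stood at 661, 547 and 407 CPM in SCS 1, SCS 2 and SCS 5. It stood at 231, 313, 309, 247 and 553 CPM in sham 1 to 5, and at 259, 236 and 255 CPM in naive 1 to 3. Sham 5 reached the stimulated range, while sham 1 was below every naive library. The log2 fold change of stimulated over sham was 0.70 ± 0.28 (SE), at an edgeR adjusted p of 0.212. Without sham 5 it was 0.97 with an adjusted p of 0.0145, the lowest over 19 alternatives. The highest was 0.489, without SCS 2, at a log2 fold change of 0.69.

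Stimulated over naive, Vim had a log2 fold change of 1.11 ± 0.32 (SE) at an adjusted p of 0.0528, just outside the threshold. It passed without SCS 5 (0.0445), sham 1 (0.0496) or sham 5 (0.00444), with DESeq2 (0.0143), limma-voom (0.0123) and quality weights (0.00578), and in the fit of those groups alone (0.00662). The highest of the 19 alternatives was 0.210. Sham over naive it was at 0.41 ± 0.29 (SE, edgeR adjusted p = 0.761), with a 95% interval of -0.26 to 1.07, and without sham 5 at 0.14 (adjusted p = 0.979, in a range of 0.625 to 0.989 over 19 alternatives).

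Cd44 encodes the cell-surface receptor for hyaluronan, which also binds osteopontin. It stood at 35.3, 53.7 and 38.2 CPM in SCS 1, SCS 2 and SCS 5. It stood at 22.3, 13.9, 21.8, 28.7 and 30.4 CPM in sham 1 to 5, and at 16.4, 15.3 and 14.8 CPM in naive 1 to 3. All stimulated libraries lay above all sham libraries, whereas sham 2 was below the naive ones. For stimulated over sham the log2 fold change was 0.86 ± 0.22 (SE), with an edgeR adjusted p of 0.0639. It passed without sham 2 (0.0469) or sham 5 (0.0324), and with DESeq2 (0.000815), limma-voom (0.0250) and quality weights (0.0240). The highest of the 19 alternatives was 0.292, without SCS 2, where the log2 fold change was 0.66. Over naive, stimulated libraries were 2.74-fold higher (95% interval 1.86 to 4.05, edgeR adjusted p = 0.00515), and in sham libraries its log2 fold change was 0.60 ± 0.23 (SE), at an edgeR adjusted p of 0.572.

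Hspb1 encodes a small heat shock protein, a chaperone that binds unfolded protein and filaments and is induced by stress. It stood at 194, 198 and 135 CPM in SCS 1, SCS 2 and SCS 5. It stood at 85.9, 75.2, 98.3, 84.7 and 109 CPM in sham 1 to 5, and at 73.3, 73.8 and 71.6 CPM in naive 1 to 3. The 3 groups did not overlap. The naive libraries lay within 1.03-fold of each other and sham 2 lay just above them. Hspb1 rose in stimulated over sham libraries, with a log2 fold change of 0.95 ± 0.13 (SE), or 1.93-fold (95% interval 1.58 to 2.37, edgeR adjusted p = 0.00920). Of the libraries left out singly, SCS 2 was the one without which the call was lost, at a log2 fold change of 0.86 (adjusted p = 0.0757), in a range of 3.64e-10 to 0.110 over 19 alternatives. Stimulated over naive it was 2.41-fold higher (edgeR adjusted p = 0.000807), and for sham over naive the log2 fold change was 0.32 ± 0.14 (SE), at an edgeR adjusted p of 0.615.

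**Figure D2:**
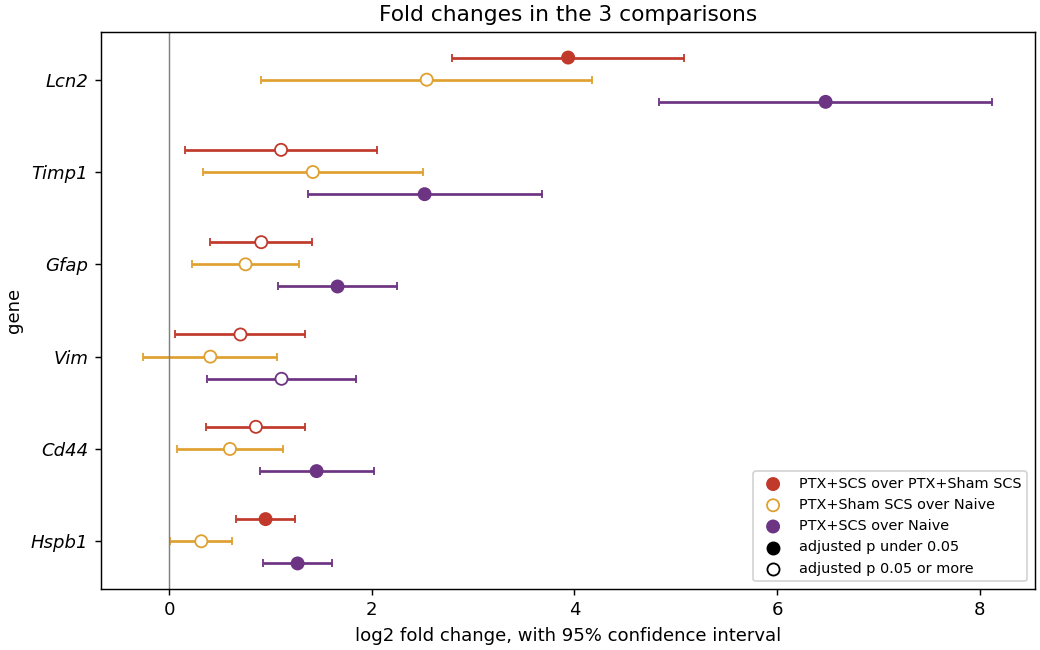
Log2 fold changes of the 6 genes from edgeR with 95% confidence intervals, filled where the adjusted p was under 0.05. Lcn2 and Hspb1 are filled for PTX+SCS over PTX+Sham SCS, none for PTX+Sham SCS over Naive, and every gene but Vim for PTX+SCS over Naive.

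Read together, 2 of the 6 tested genes rose in stimulated against sham libraries and 0 fell, where 3.00% of all tested genes rose. All 6 had an unadjusted p under 0.05 with a higher level, as did 11.9% of all genes, and 4 (Lcn2, Gfap, Cd44 and Hspb1) did not overlap between the groups, as did 6.23%. The 6 fold changes had a median of 0.93 on the log2 scale, against -0.01 over all genes. The count of 2 was 0 without SCS 2 and 5 without sham 5. Because the list was chosen with earlier results of these data known, the shares of all genes are a description. They are no test of the list, here or in the comparisons with naive libraries.

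Of the same 6 genes, 0 changed in sham against naive libraries by the edgeR test, where 0.133% of all genes rose. At an unadjusted p under 0.05, 5 were higher (5.43% of all genes), and 4 did not overlap (3.96%), with Vim and Cd44 the exceptions. DESeq2 called 1, and limma-voom called 0 with or without quality weights. The median log2 fold change was 0.68, against 0.01 over all genes.

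In stimulated against naive libraries 5 of the 6 rose, where 10.1% of all genes rose. All 6 had an unadjusted p under 0.05 (16.2% of all genes were higher at that level) and all 6 did not overlap (18.1%). The median log2 fold change was 1.56, against -0.02 over all genes. The 3 comparisons share libraries, so their values are set side by side and are not independent of each other. On the log2 CPM scale the sham mean lay between the naive and stimulated means for each of the 6 genes, from 24.3% of that distance for Hspb1 to 48.9% for Timp1. Without sham 5, an alternative chosen after seeing the data, Timp1 was at 35.8% and Vim at 11.7%, against 30.6% for Vim with it, and the ends of the range were then Vim and Gfap (39.3%).

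**Figure D3:**
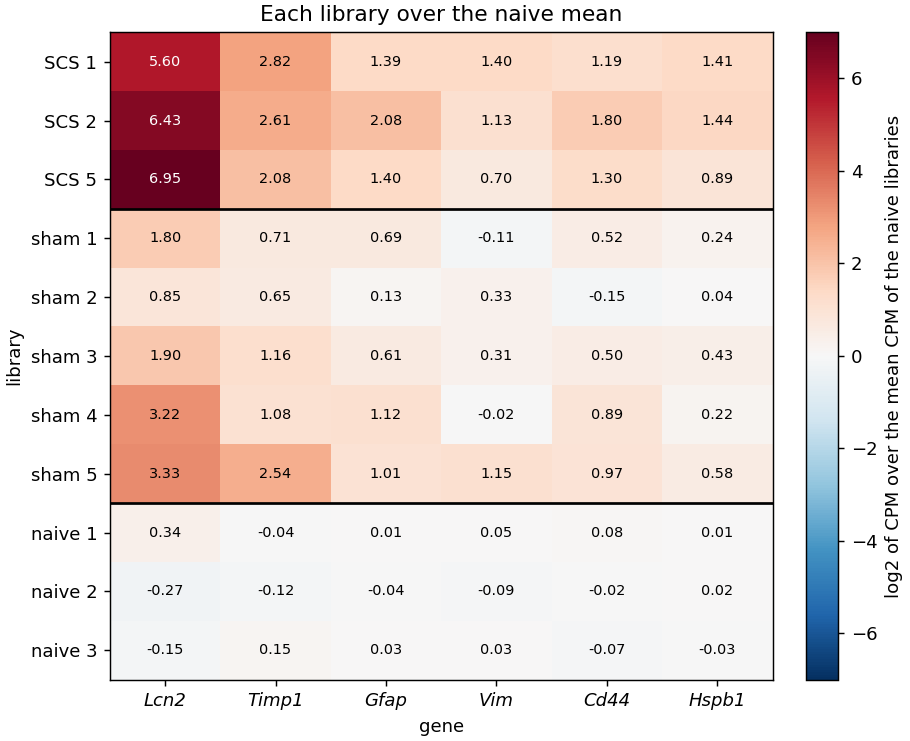
Log2 of each library's CPM over the mean of the naive libraries, for the 6 genes in columns and the 11 libraries in rows. Lcn2 runs from 5.60 to 6.95 in the PTX+SCS libraries and from 0.85 to 3.33 in the PTX+Sham SCS libraries, and sham 5 is the highest sham library in 5 of the 6 genes.

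The genes also varied within groups, and the naive libraries were the most alike. The coefficient of variation of CPM was 20.1% (Hspb1) to 43.4% (Lcn2) among the stimulated libraries, 14.5% (Hspb1) to 66.5% (Timp1) among the sham libraries and 1.58% (Hspb1) to 23.6% (Lcn2) among the naive libraries. Across all tested genes the biological coefficient of variation was 14.4% in stimulated, 11.05% in sham and 6.96% in naive libraries. The edgeR fit pools the spread over the groups, with the naive libraries included. Fitted to stimulated and sham libraries alone, the edgeR adjusted p of stimulated over sham was 0.0474 for Lcn2 and 0.0455 for Hspb1. With all libraries in the fit it was 0.0127 and 0.00920.

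Some sham libraries lay at an end of their group's range for most of the genes. Among the sham libraries sham 5 was the highest for 5 of the 6 genes, all but Gfap, and sham 2 was the lowest for 5, all but Vim. The stimulated libraries had no such common order. SCS 2 was highest for Gfap, Cd44 and Hspb1, SCS 1 for Timp1 and Vim, and SCS 5 for Lcn2, although SCS 5 was the lowest of the 3 for Timp1, Vim and Hspb1.

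The ratio of 2 genes within a library does not depend on library scaling, and pairs differed in how far it moved. Cd44 counts per 1000 Gfap counts ran from 6.10 to 6.97 in the stimulated, 6.11 to 7.24 in the sham and 6.93 to 7.82 in the naive libraries. Over all 11 libraries this ratio spanned 1.28-fold, while Gfap itself spanned 4.36-fold and Cd44 3.86-fold in CPM.

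Vim per 1000 Gfap counts spanned 2.53-fold, from 54.3 in sham 4 to 137 in sham 2. The groups overlapped, at 62.1 to 121 in stimulated, 54.3 to 137 in sham and 117 to 124 in naive libraries. Timp1 per 1000 Vim counts was 63.9 to 68.5 in the stimulated, 30.7 to 64.3 in the sham and 23.0 to 26.7 in the naive libraries, with sham 5 at the level of the stimulated libraries. Lcn2 per 1000 Gfap counts was 17.5 to 44.2 in the stimulated, 1.55 to 4.70 in the sham and 0.808 to 1.19 in the naive libraries, without overlap. Between all 3 groups Lcn2 thus differed by more than Gfap.

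**Figure D4:**
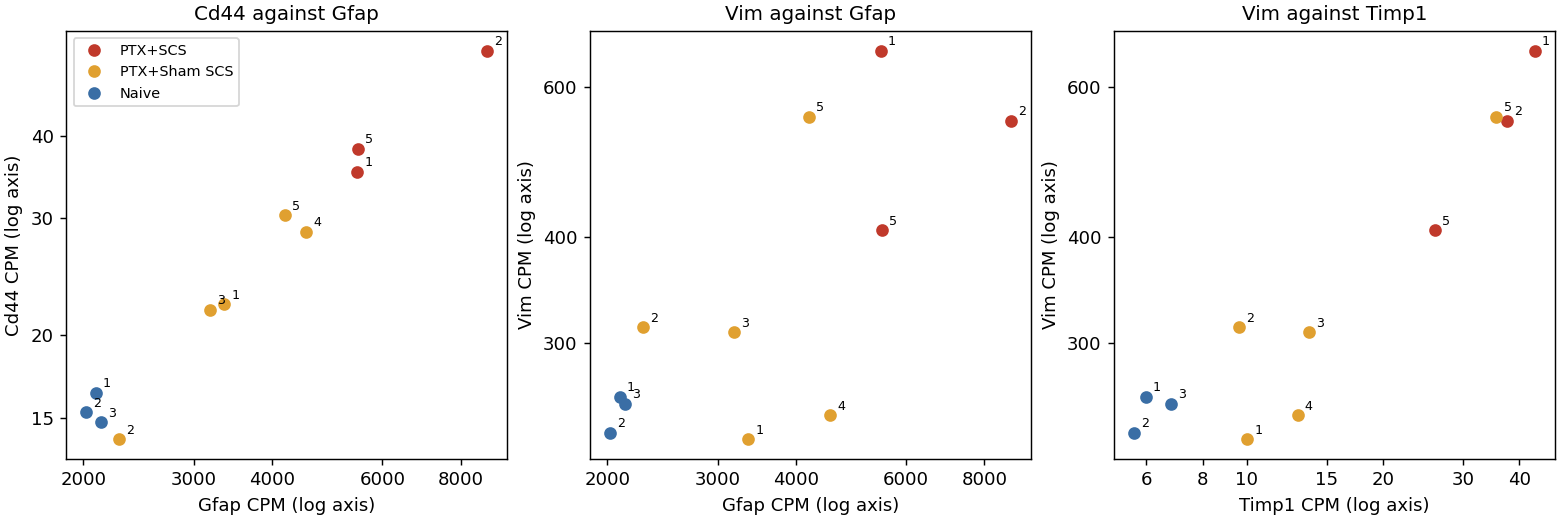
CPM of pairs of genes on log axes, 1 point per library, coloured by group and numbered by replicate. The ratio of Cd44 to Gfap spans 1.28-fold over all 11 libraries, although their order differs within the naive and sham groups. Vim follows Gfap less closely, and Vim and Timp1 are both high in sham 5.

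Each gene was also set against 14459 others with a mean of at least 1 CPM, by Pearson's r of log2 CPM over the 11 libraries. This r is a description, since the points share groups and the group differences enter it, and a pair can have a high r while its ratio moves widely, as Lcn2 and Gfap did. Cd44 was number 7 in likeness to Gfap (r = 0.99) and Gfap number 3 in likeness to Cd44. Lcn2 was closest to Cd44 (r = 0.95, number 31) and Gfap (r = 0.95, number 38). Vim was closest to Timp1 (r = 0.93, number 28), with Gfap far lower at number 1118 (r = 0.73). The gene most like Lcn2 was ENSRNOG00000016460 (r = 0.98), at 1875 CPM in stimulated, 1146 CPM in sham and 936 CPM in naive libraries, and the gene most like Gfap was ENSRNOG00000013014 (r = 0.99), at 23.7, 13.9 and 8.31 CPM in the same order of groups. The sources used here give no name for either ID.

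**Figure D5:**
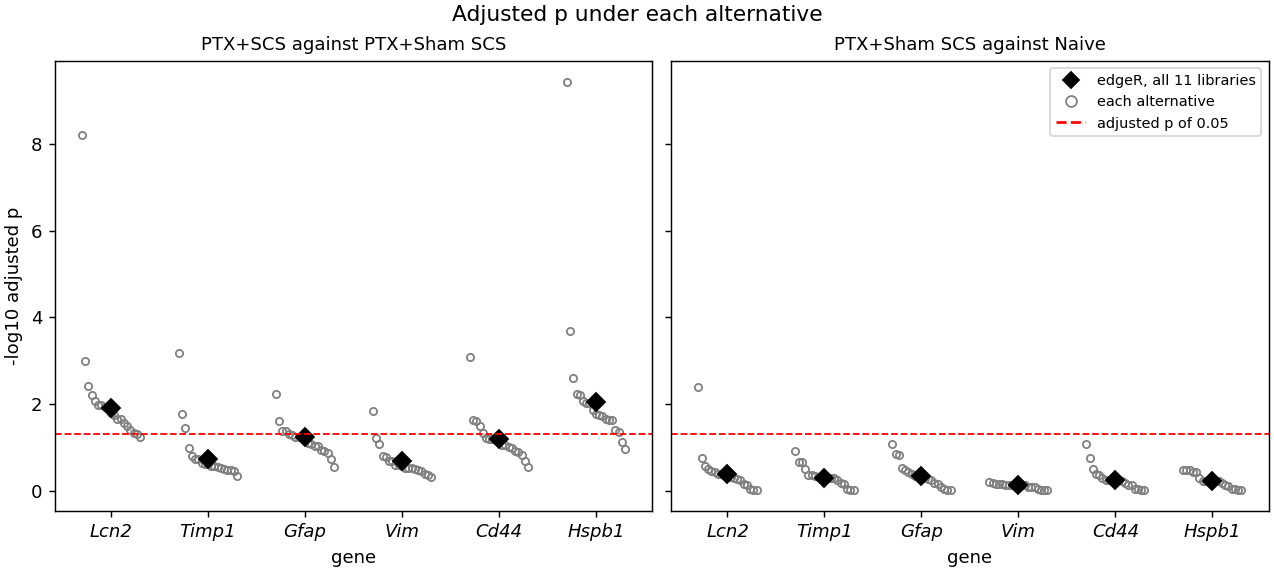
The −log10 adjusted p of each gene with edgeR on all 11 libraries (diamonds) and under each of 19 alternatives (circles), with a line at an adjusted p of 0.05. For PTX+SCS against PTX+Sham SCS, Lcn2 and Hspb1 pass in 17 alternatives each, Gfap and Cd44 in 5 each, Timp1 in 3 and Vim in 1. For PTX+Sham SCS against Naive only Lcn2 passes, in 1.

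The calls moved between alternatives while the sign did not. In all 19 alternatives the 6 genes kept a positive log2 fold change in each of the 3 comparisons. All alternatives reuse the same libraries. Where groups did not overlap, leaving out a single library could not reverse the sign, so the kept sign is a description and no separate support. For stimulated over sham it ran from 3.58 to 4.34 in Lcn2, 0.95 to 1.63 in Timp1, 0.65 to 1.04 in Gfap, 0.54 to 0.97 in Vim, 0.66 to 0.99 in Cd44 and 0.86 to 1.11 in Hspb1.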

How the data were processed

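Per the labels, poly(A)-selected directional libraries were made from 1 ug of total RNA. The authors deposited whole-number counts per Ensembl gene ID. HISAT2 and featureCounts on build rn6, and DESeq2, appear in the submitters' processing notes, with versions, annotation and strand setting not given in the sources used here, so counts of overlapping genes or near-identical copies are uncertain. Columns were matched to samples by title, and 17 further sample columns were not used.

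The filterByExpr rule of edgeR 4.0.16 (R 4.3.3) kept 15758 of 32623 genes. After TMM scaling, 1 quasi-likelihood model with a mean for each group was fitted to all 11 libraries (robust, two-sided tests, Benjamini-Hochberg over all tested genes, threshold 0.05, 8 residual degrees of freedom). The standard error is the log2 fold change over the square root of F. A prior count of 2 went into log2 CPM. No pair of libraries agreed within sampling noise (chi-square per degree of freedom 5.17 to 29.4 within groups, over genes with at least 20 counts in the pair).

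The members, lists and tests were chosen with earlier results of these data known. All 7 members were named, with the genes most like Lcn2 and Gfap. The other 19 gene lists (186 symbols) could not be matched to IDs, for want of a table pairing symbols with IDs, and were not tested. Alternatives were other scalings, no filter, DESeq2 1.42.0, limma-voom of limma 3.58.1 (also with sample quality weights), fits of only the groups compared, the replicate number as a block, each library left out, and CPM on unscaled totals.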

Additional observations from a re-analysis of the deposited data

Results flagged for a closer look

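A test of outlying samples was run on the sham group and not on the groups of 3 libraries. It used CPM and not log2 CPM, at both ends of the range of each gene. In it, sham 5 stood apart for 2 of the 6 genes. It held Timp1 at 35.6 CPM, where the next sham library was at 13.7 CPM, and Vim at 553 CPM, where the next was at 313 CPM. The gap was 0.842 and 0.746 of the group's range, above the critical value of 0.71. Chance would flag about 5% of groups at each such test. Timp1 and Vim were alike over the 11 libraries (r = 0.93), so the flags are not independent of each other.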

How the results depend on the processing

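Of the members called in stimulated against sham, sham against naive and stimulated against naive libraries (2, 0 and 5), DESeq2 called 4, 1 and 6, limma-voom 5, 0 and 6 with or without quality weights, and leaving out single libraries gave 0 to 5, 0 to 0 and 4 to 6. Over all genes, 563, 22 and 2342 passed. DESeq2 gave 1136 and 133 in the comparisons with sham, quality weights gave 44 in sham against naive, the fit of 2 groups gave 140 in stimulated against sham, and leaving out single libraries gave 36 to 1057, 6 to 56 and 1018 to 2786. The cause was not tested. No fold change changed sign, and mean CPM on unscaled totals moved by less than 1 SD for every gene and group.

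Under a block for the replicate number, 0, 0 and 2 members and 5, 9 and 672 genes passed. Lcn2 and Hspb1 in stimulated against sham then had log2 fold changes of 4.16 and 0.94 with adjusted p of 0.0502 and 0.110, and in stimulated against naive Timp1, Gfap and Cd44 had 0.108, 0.0531 and 0.0734. Same-numbered deviations correlated at -0.174 to 0.130, and 5 of 11 libraries correlated best with their own number. Sham 4 had no counterpart in another group and could not be among the 5. The count expected by chance was not worked out, so whether the numbers pair the libraries was not tested. The labels tie no pairs to the numbers, which were treated as names. Number 4 occurs in the sham group alone, and the block leaves fewer residual degrees of freedom than the 8 of the main fit. With 40 to 101 counts of Lcn2 per naive library, depth limits its naive level more than that of the other 5 counted genes.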
